A study of Mus musculus with 15 samples.

Results

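The 10 genes described here encode the machinery that loads peptides onto MHC class I molecules. They are the classical heavy chains *H2-K1* and *H2-D1*, the light chain *B2m*, the peptide transporter genes *Tap1* and *Tap2*, the loading factor *Tapbp*, the inducible proteasome subunits *Psmb8*, *Psmb9* and *Psmb10*, and the transcriptional activator *Nlrc5*. They were chosen by name from the 20089 complete entries of a gene expression table, and all 10 were found and passed the filter on low values that 11743 genes passed. RNA was sequenced from bone marrow-derived macrophages (BMDMs) of wild-type C57BL/6 mice, which become osteoclasts when given RANKL and are driven toward inflammation by the bacterial product lipopolysaccharide (LPS). The 15 samples formed 5 groups, each with 3 samples. Control cells received M-CSF, the growth factor that keeps macrophages alive, and the other groups received M-CSF with RANKL for 4 h, RANKL for 72 h, LPS for 4 h or LPS for 72 h. The comparisons ask how these genes differed from control at an early and a late time of each stimulus, and whether RANKL and LPS differed. The labels give no time for the control samples, and the same 3 serve both times. In comparisons with control, the stimulus and the time in culture therefore cannot be told apart.

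Class I molecules display fragments of proteins made inside the cell to CD8+ T cells. The proteasome cuts the proteins, the TAP transporter carries the peptides into the endoplasmic reticulum, tapasin (from *Tapbp*) holds an empty class I molecule beside the transporter, and a heavy chain with its light chain carries the peptide to the surface. Interferons and NF-kappaB are known inducers of these genes, and NLRC5 binds the promoters of class I genes together with the RFX complex and raises their transcription.

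Of the 10 genes, 7 lie on chromosome 17, in the mouse MHC region, with *B2m* on chromosome 2 and *Psmb10* and *Nlrc5* on chromosome 8. In RefSeq models on GRCm38.p6, *H2-K1* spans chr17:33996012-34000619 on the minus strand, *H2-D1* spans chr17:35263094-35267497 on the plus strand and *B2m* spans chr2:122147687-122153082 on the plus strand. RefSeq upstream sequences (250 bases before a start site) were at hand for 8 of the 10 genes. The stretches below are shown because they hold, within 30 bases each, the letters of an NF-kappaB type motif and of an interferon response type motif. Capitals mark the matches, and each stretch is written 5′ to 3′ on the strand of its gene.
H2-K1: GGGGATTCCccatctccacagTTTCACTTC
H2-D1: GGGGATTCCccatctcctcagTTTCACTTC
B2m: GAAACTGAAaatGGGAAAGTCcctttgtaa
The *H2-K1* stretch is chr17:34000429-34000458 (minus strand) and begins 111 bases before a RefSeq start at position 34000347. The longer RefSeq model given above begins farther upstream, so the stretch lies inside that model. The *H2-D1* stretch is chr17:35262923-35262952 (plus strand), 171 bases before its start, and the *B2m* stretch is chr2:122147548-122147577 (plus strand), 139 bases before its start. Both strands were searched. GGGGATTCC was found in the upstream sequences of *H2-K1* and *H2-D1* and in 0.213% of all 32851 upstream sequences of that length. GGGAAAGTC, found in *B2m*, was in 0.307% of them. The spaced repeat GAAANNGAA, also found in *B2m*, was in 7.13%, and the like repeat GAANNGAAA, whose reverse complement stands in both heavy chains, was in 6.31%. These 2 repeats can share letters in other sequences. None of these 4 motifs was found in the upstream sequences of *Tap1*, *Psmb9*, *Psmb8*, *Tapbp* or *Psmb10*, which says only that these letters are not in those windows. *Psmb9* and *Tap1* are transcribed away from each other from starts with 225 bases between them.

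Values are FPKM (fragments per kilobase of transcript, scaled to the mapped fragments of the library), so levels are given per length. Between 18306184 and 20330207 fragments fell on listed genes in each sample, and each of the 10 genes had at least 942 fragments in each sample, so counting error was small beside the spread between samples. In bulk RNA, fewer cells of a type and less RNA per cell cannot be told apart. All 10 listed macrophage markers were above 0 in every group. The LPS 72 h replicate 3 library stood apart from its 2 partners, with a median ratio of their differences to counting noise of 37.6 and 54.8, against 7.65 to 23.03 for the other pairs. In control cells, replicate 1 was the highest sample for 9 of the 10 genes and replicate 3 the lowest for 9. Replicate 1 was likewise the highest for 9 in RANKL 4 h and for 9 in LPS 4 h, so values are also compared within each replicate number.

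*B2m* was the most abundant of the 10 transcripts, at 6425 ± 1106 FPKM (mean ± SD, n = 3) in control cells. *H2-D1* followed at 3395 ± 744 FPKM and *H2-K1* at 1755 ± 566 FPKM. The transporter, tapasin and proteasome genes lay between 68.5 ± 24.2 FPKM for *Tap2* and 279 ± 92.2 FPKM for *Psmb8*, and *Nlrc5* was the lowest at 13.7 ± 2.06 FPKM. The ratio of *H2-D1* to *H2-K1* ran from 1.46 to 2.34 over the 15 samples. The mean was lowest in RANKL 72 h for all 10 genes. It was highest in LPS 72 h for *H2-K1*, *H2-D1* and *B2m*, in control cells for *Psmb8* and in LPS 4 h for the other 6 genes. Together *H2-K1*, *H2-D1* and *B2m* took 1.38% to 2.03% of listed fragments in control samples, 0.800% to 1.04% in RANKL 72 h samples and 2.27% to 2.60% in LPS 72 h samples.

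**Figure D1:**
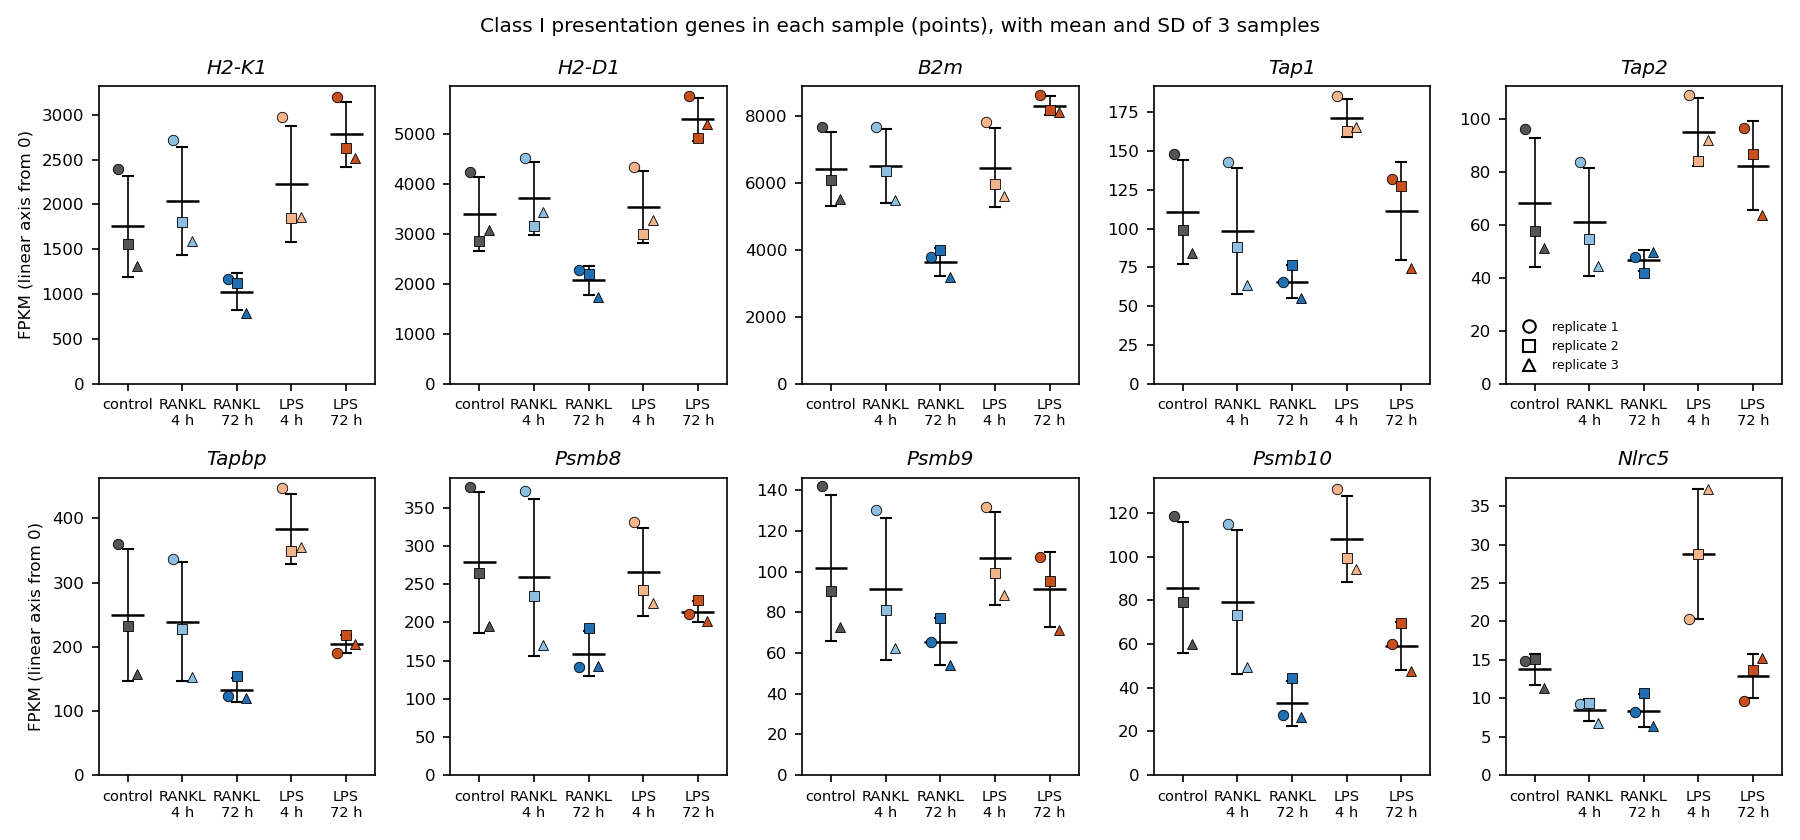
FPKM of each of the 10 class I presentation genes (linear axis from 0) in the 5 groups. Points are samples with the shape giving the replicate number, the horizontal line is the mean and the bar the SD of 3 samples, and the RANKL 72 h mean is the lowest of the 5 in all 10 panels.

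After 4 h of RANKL, *Nlrc5* was the one gene of the 10 that changed. To count as changed, a gene needed an unadjusted limma p under 0.05 together with a fold over 1.5 or under 0.66. Across all tested genes 1.35% fell and 1.21% rose by that measure. *Nlrc5* was at 14.8, 15.1 and 11.4 FPKM in control replicates 1 to 3 and at 9.21, 9.34 and 6.75 FPKM in RANKL 4 h. All 3 treated samples lay below all 3 controls, as for 4.71% of all genes. The log2 fold change was -0.70 (SE 0.25), but the limma adjusted p was 0.667. Without RANKL 4 h replicate 3 the gene no longer passed (-0.55). The other 9 genes had log2 fold changes between -0.21 (*Tap1*) and 0.22 (*H2-K1*), and their groups overlapped.

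After 72 h of RANKL, 8 of the 10 genes fell and none rose. Among all tested genes 9.04% fell and 20.2% rose. With samples centred on their median gene those shares were 14.2% and 12.7%, and all 10 fell there, *Tap2* (-0.72) and *Psmb9* (-0.81) included. All 10 estimates were negative, with a median log2 fold change of -0.74, where the median of all tested genes was 0.16. In 9 of the 10, every RANKL 72 h sample lay below every control sample, as for 16.1% of all genes, and within each replicate number all 10 were lower, as for 22% of all genes. After Benjamini-Hochberg adjustment over all tested genes 6 of the 10 fell, as did 7.54% of all genes. A fit with a block for the replicate number, which paired these groups only weakly, gave 8 after adjustment. It added *H2-K1* (limma adjusted p = 0.00423) and *Tap1* (limma adjusted p = 0.0116). Before adjustment the block moved the number of all tested genes that fell from 1062 to 1135. No share of all genes past adjustment is given for the block, so the 8 are not read as firmer than the 6.

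The heavy and light chains of the class I molecule itself fell together. *H2-K1* read 2394, 1556 and 1317 FPKM in the controls and 1163, 1121 and 785 FPKM in RANKL 72 h. *H2-D1* read 4246, 2863 and 3077 FPKM in the controls and 2270, 2190 and 1742 FPKM in RANKL 72 h. *B2m*, which every classical and most nonclassical heavy chains need for stable folding, read 7663, 6079 and 5533 FPKM in the controls and 3778, 3988 and 3181 FPKM in RANKL 72 h. In none of these 3 genes did the groups overlap. The log2 fold changes were -0.75 (SE 0.28, limma adjusted p = 0.0557) for *H2-K1*, -0.70 (SE 0.23, limma adjusted p = 0.0306) for *H2-D1* and -0.81 (SE 0.23, limma adjusted p = 0.0161) for *B2m*.

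Among the loading genes, *Tap1*, which encodes one chain of the transporter, read 148, 99.1 and 84.5 FPKM in controls and 65.3, 76.8 and 55.1 FPKM in RANKL 72 h. It fell by 0.72 on the log2 scale (SE 0.29, limma adjusted p = 0.0710). *Tapbp* read 360, 233 and 157 FPKM in controls and 122, 154 and 120 FPKM in RANKL 72 h. It fell by 0.84 on that scale (SE 0.285, limma adjusted p = 0.0379). The lowest control and the highest treated sample were close in both genes but did not overlap. *Tap2*, the other chain, was at 96.2, 57.8 and 51.4 FPKM in controls and at 47.8, 42.0 and 49.9 FPKM in RANKL 72 h. Its treated samples also lay below all controls, yet its log2 fold change of -0.50 (95% interval -1.04 to 0.04) did not pass.

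*Psmb10* fell most of the 10. It read 119, 79.2 and 59.9 FPKM in controls and 27.6, 44.7 and 26.4 FPKM in RANKL 72 h. The groups did not overlap, and the log2 fold change was -1.37 (SE 0.31, limma adjusted p = 0.00492). *Psmb8* fell from 377, 264 and 195 FPKM to 142, 193 and 143 FPKM, a log2 fold change of -0.77 (SE 0.27, limma adjusted p = 0.0469). *Psmb9* was at 142, 90.4 and 72.6 FPKM in controls and 65.5, 77.3 and 53.9 FPKM in RANKL 72 h, the one gene whose groups overlapped. Its fold of 0.665 and its unadjusted p both missed the thresholds. *Nlrc5* was at 8.23, 10.6 and 6.32 FPKM, all below the controls, a log2 fold change of -0.73 (SE 0.25, limma adjusted p = 0.0396).

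The number that fell depended on single libraries. Without control replicate 1, the highest control for 9 genes, 3 of the 10 fell, and without RANKL 72 h replicate 3 the number was 4. The direction did not turn in any of the 20 alternatives tried for each gene. Markers of other cells moved with this comparison, and their part in it was not tested. The summed level of 10 neutrophil markers was 7949 to 24417 FPKM in controls and 1870 to 7508 FPKM in RANKL 72 h, with 6 of 10 lower. That of 8 dendritic cell markers was 6.41 to 12.8 FPKM and 1.05 to 5.22 FPKM, with 5 of 8 lower. That of 8 B cell markers was 17.1 to 21.7 FPKM and 5.08 to 7.29 FPKM, with 5 of 6 tested lower and *Cr2* at 0 in RANKL 72 h. Of 6 endothelial markers, summing to 14.3 to 24.9 and 3.81 to 12.1 FPKM, 3 were lower. T and NK cell markers summed to 12.99 to 24.6 FPKM in controls and 6.92 to 23.7 FPKM in RANKL 72 h. Of these 10, 2 were higher and 1 lower, where 20.2% of all genes rose and 9.04% fell. Stromal markers went the other way, with 9 of 13 higher and sums of 148 to 327 and 418 to 1970 FPKM. Osteoclast markers rose in 9 of 10, from 155 to 280 FPKM in sum to 1721 to 5474 FPKM, with *Calcr* at 0 in controls.

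**Figure D2:**
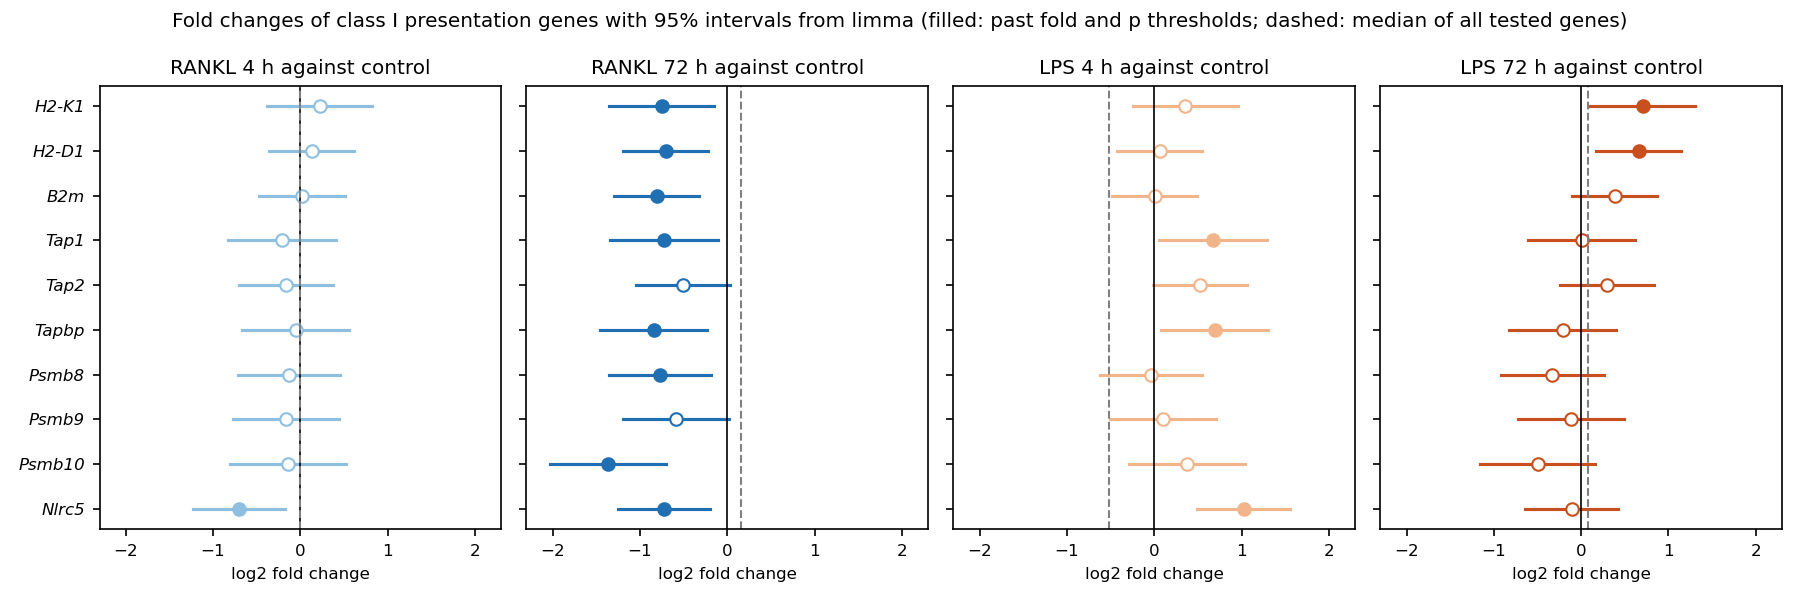
Log2 fold change of each class I presentation gene against control (horizontal axis) with its 95% interval from limma, in 1 panel for each stimulus and time. Filled points passed the fold and p thresholds (1, 8, 3 and 2 genes), and the dashed line is the median of all tested genes, which was -0.52 in LPS 4 h.

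After 4 h of LPS, *Nlrc5*, *Tap1* and *Tapbp* rose and none of the 10 fell. After adjustment *Nlrc5* and *Tapbp* remained, where 8.43% of all genes rose, and with the block *Tap1* also passed (limma adjusted p = 0.00861). Among all tested genes 8.75% rose and 41% fell, and the median log2 fold change of all genes was -0.52. Relative to that median all 10 genes were higher. With samples centred on their median gene, 17.4% of all genes rose and 14.3% fell, and 8 of the 10 class I genes rose.

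*Nlrc5* read 20.3, 28.8 and 37.2 FPKM after LPS for 4 h, every value above the 3 controls, an order that 10.6% of all genes showed. Its log2 fold change was 1.03 (SE 0.25, limma adjusted p = 0.00284). *Tap1* read 186, 163 and 166 FPKM, again above all controls, a log2 fold change of 0.67 (SE 0.29, limma adjusted p = 0.0579). *Tapbp* read 447, 350 and 355 FPKM and overlapped the highest control, with a log2 fold change of 0.69 (SE 0.285, limma adjusted p = 0.0489). *Nlrc5* passed with each library left out in turn, whereas *Tap1* and *Tapbp* were lost without control replicate 2, control replicate 3 or LPS 4 h replicate 1, which left 1 of the 10. *Tap1* was also lost without LPS 4 h replicate 2 or 3.

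The other 7 genes did not pass after 4 h of LPS. *Tap2* was at 109, 84.1 and 92.2 FPKM (log2 fold change 0.52, 95% interval -0.02 to 1.06). *H2-K1* was at 2976, 1849 and 1864 FPKM, with a log2 fold change of 0.35 (95% interval -0.25 to 0.96). *H2-D1* and *B2m* had log2 fold changes of 0.06 and 0.01, *Psmb8* of -0.04, *Psmb9* of 0.10 and *Psmb10* of 0.38. The signs of *H2-D1*, *B2m*, *Psmb8* and *Psmb9* turned under at least 1 alternative, so none is given a direction. Of the other cells' markers, 2 of 6 tested for B cells, 1 of 8 for dendritic cells, 1 of 10 for neutrophils and 1 of 10 for T and NK cells were lower at LPS 4 h and none was higher. Among all tested genes 41% were lower there, and the part of these markers in the result was not tested.

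After 72 h of LPS, the heavy chains *H2-K1* and *H2-D1* rose and the other 8 genes did not pass. Among all tested genes 14.9% rose and 16.1% fell. *H2-K1* read 3201, 2626 and 2521 FPKM, all above the highest control, a log2 fold change of 0.70 (SE 0.28, limma adjusted p = 0.0647). *H2-D1* read 5762, 4916 and 5200 FPKM, also above all controls, a log2 fold change of 0.66 (SE 0.23, limma adjusted p = 0.0356). *B2m*, at 8632, 8199 and 8125 FPKM, was above all controls too, but its log2 fold change of 0.39 (95% interval -0.10 to 0.87) did not pass. These were the 3 genes of the 10 without overlap, as for 23.1% of all genes in that direction.

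The count of 2 at LPS 72 h was not firm. With samples centred on their median gene neither heavy chain passed (*H2-K1* at 0.62 and *H2-D1* at 0.58), where 11.8% of all genes rose and 18.1% fell. Without control replicate 2 neither passed, and without LPS 72 h replicate 1, as without control replicate 3, *H2-K1* was lost (0.60 and 0.52). Without LPS 72 h replicate 3, the library that stood apart, both were kept. None of the loading and proteasome genes passed, with log2 fold changes from -0.50 (*Psmb10*, 95% interval -1.16 to 0.16) to 0.30 (*Tap2*). *Nlrc5*, raised at 4 h, was at 9.69, 13.7 and 15.2 FPKM and overlapped the controls. Neutrophil markers summed to 323 to 2057 FPKM in LPS 72 h, with 9 of 10 lower and 1 higher than in controls, B cell markers to 0.507 to 2.27 FPKM with 6 of 6 tested lower and *Cr2* at 0, and dendritic cell markers to 0.998 to 1.65 FPKM with 5 of 8 lower and *Cd209a* and *Siglech* at 0. Of 6 endothelial markers 5 were lower, with sums of 5.56 to 16.2 FPKM, and 2 of 13 stromal markers were higher, with sums of 97.8 to 488 FPKM. T and NK cell markers summed to 7.95 to 29.6 FPKM, with 1 of 10 higher and 1 lower, where 14.9% of all genes rose and 16.1% fell. Their part in the result was not tested.

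RANKL and LPS were then compared at the same time. At 4 h, *Nlrc5*, *Tap1*, *Tapbp* and *Tap2* were lower in RANKL than in LPS, and all 3 values of each lay below all 3 in LPS, as for 11.5% of all genes. Among all tested genes 9.31% were lower and 42.5% higher. With samples centred on their median gene those shares were 17.6% and 14.7%, and 7 of the 10 genes were lower. *Nlrc5* differed most, with a log2 fold change of -1.73 (SE 0.25, limma adjusted p = 5.19e-05). The others were *Tap1* at -0.88, *Tapbp* at -0.75 and *Tap2* at -0.68, with limma adjusted p of 0.0170, 0.0345 and 0.0298. Without RANKL 4 h replicate 3 only *Nlrc5* passed, and without LPS 4 h replicate 1 *Nlrc5* and *Tap1* did. *H2-K1*, *H2-D1* and *B2m* differed by -0.13, 0.07 and 0.01, with 95% intervals that reached from -0.73 to 0.55.

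At 72 h, 8 of the 10 genes were lower in RANKL than in LPS and none was higher, where 13.8% of all tested genes were lower and 25.1% higher. After centring on the median gene those shares were 18.3% and 20.7%, and again 8 were lower. In 7 of the 10 the groups did not overlap, as for 20% of all genes. The class I molecule itself showed the widest gap. *H2-K1* had a log2 fold change of -1.46 (SE 0.28, limma adjusted p = 0.000841), *H2-D1* of -1.36 (SE 0.23, limma adjusted p = 0.000275) and *B2m* of -1.19 (SE 0.23, limma adjusted p = 0.000778). *Psmb10* at -0.87 and *Tap2* at -0.80 also passed after adjustment, which gave 5 of 10 against 12.8% of all genes, while *Tap1* at -0.73, *Tapbp* at -0.63 and *Nlrc5* at -0.62 passed on unadjusted p alone. *Psmb8* (-0.44) and *Psmb9* (-0.47) did not pass. Without RANKL 72 h replicate 3 or without LPS 72 h replicate 2 the number was 4 of 10, and it was 6 without LPS 72 h replicate 3, which stood apart. All 10 were lower within each replicate number, as for 25.8% of all genes, though the numbers did not pair these groups. Other cells' markers differed here too, and their part in the result was not tested. Neutrophil markers were higher in RANKL for 7 of 10 and lower for 1, and stromal markers higher for 8 of 13 and lower for 1. Osteoclast markers were higher for 10 of 10 and T and NK cell markers for 2 of 10, while macrophage markers were lower for 4 of 10. B cell markers were higher for 1 of 6 tested and dendritic cell markers for 1 of 8, with none lower. Macrophage marker sums were 11148 to 16475 FPKM in RANKL 72 h and 6389 to 17775 FPKM in LPS 72 h. The 72 h comparisons with control share the control samples, so the values of each are given side by side and their likeness is not read as a result.

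Between the times of one stimulus, RANKL 72 h was below RANKL 4 h in 6 of the 10 genes and above it in none, where 8.24% of all tested genes were lower and 20.1% higher. Centred values gave 13.6% lower and 12.4% higher, and 7 of the 10 were lower. Without centring the 6 were *Psmb10* (-1.23), *H2-K1* (-0.98), *H2-D1* (-0.84), *B2m* (-0.83), *Tapbp* (-0.79) and *Psmb8* (-0.64). The first 4 did not overlap, as for 15.6% of all genes, and they alone passed adjustment, while with the block all 6 did. *Psmb8* was lost under 9 of its 20 alternatives. Without RANKL 4 h replicate 1 it was at -0.34 and *Tapbp* at -0.50, which left 4 of the 10. Of the markers, 5 of 10 for neutrophils, 4 of 6 tested for B cells and 2 of 6 endothelial were lower at the late time, with none higher. Dendritic cell markers were lower for 5 of 8 and higher for 1, and macrophage markers lower for 2 of 10 and higher for 1. T and NK cell markers were higher for 2 of 10 and lower for 1. Higher with none lower were 8 of 13 stromal and 9 of 10 osteoclast markers, and the part of all these in the result was not tested. Neutrophil marker sums were 7544 to 21856 FPKM and stromal marker sums 178 to 338 FPKM in RANKL 4 h. *Nlrc5* was at 8.43 ± 1.46 and 8.39 ± 2.16 FPKM (n = 3 each) at the early and the late time. Its difference was -0.02 on the log2 scale (95% interval -0.55 to 0.51). LPS 72 h was below LPS 4 h in *Nlrc5* (-1.14), *Tapbp* (-0.91), *Psmb10* (-0.88) and *Tap1* (-0.67) and above it in *H2-D1* (0.60), where 14.3% of all genes were lower and 45% higher. In 4 genes the later values lay below all earlier ones, as for 16.4% of all genes, and in 2 above, as for 51.6%. Centring samples on their median gene gave 28.6% lower and 19.5% higher, with 7 of the 10 genes lower and *H2-D1* at -0.05. Leaving out LPS 4 h replicate 1, 2 or 3 or LPS 72 h replicate 3 left 3 of the 5. In LPS 72 h 9 of 10 neutrophil markers were lower than in LPS 4 h and 1 was higher. Lower with none higher were 6 of 6 tested B cell, 5 of 8 dendritic cell and 1 of 6 endothelial markers. Macrophage markers were higher for 4 of 10 and lower for 1, and osteoclast markers higher for 3 of 10 and lower for 1. T and NK cell markers were higher for 3 of 10 with none lower, and the part of all these in the result was not tested.

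Each inducible catalytic subunit takes the place of a constitutive one, *Psmb8* of *Psmb5*, *Psmb9* of *Psmb6* and *Psmb10* of *Psmb7*. The ratio within a sample does not depend on how the sample was scaled. The log2 ratio of *Psmb10* to *Psmb7* was -0.63 ± 0.43 (SD, n = 3) in control cells and -2.07 ± 0.46 in RANKL 72 h. All 3 treated samples were below all controls, a difference of -1.44 with an exact two-sided permutation p of 0.1, the smallest that 3 against 3 can give. The ratios of *Psmb8* to *Psmb5* and of *Psmb9* to *Psmb6* differed by -0.17 each in RANKL 72 h, and their groups overlapped. None of the 12 ratio tests passed adjustment, with the smallest Benjamini-Hochberg adjusted exact p at 0.655.

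Among the constitutive subunits, *Psmb5* fell at RANKL 72 h, from 175 ± 13.7 to 117 ± 22.6 FPKM (log2 fold change -0.60, limma adjusted p = 0.00737). *Psmb6* had a log2 fold change of -0.42 and did not pass the fold threshold, and *Psmb7*, at 128 ± 8.67 and 135 ± 20.2 FPKM, had one of 0.07. None of the 3 passed at RANKL 4 h, LPS 4 h or LPS 72 h.

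**Figure D3:**
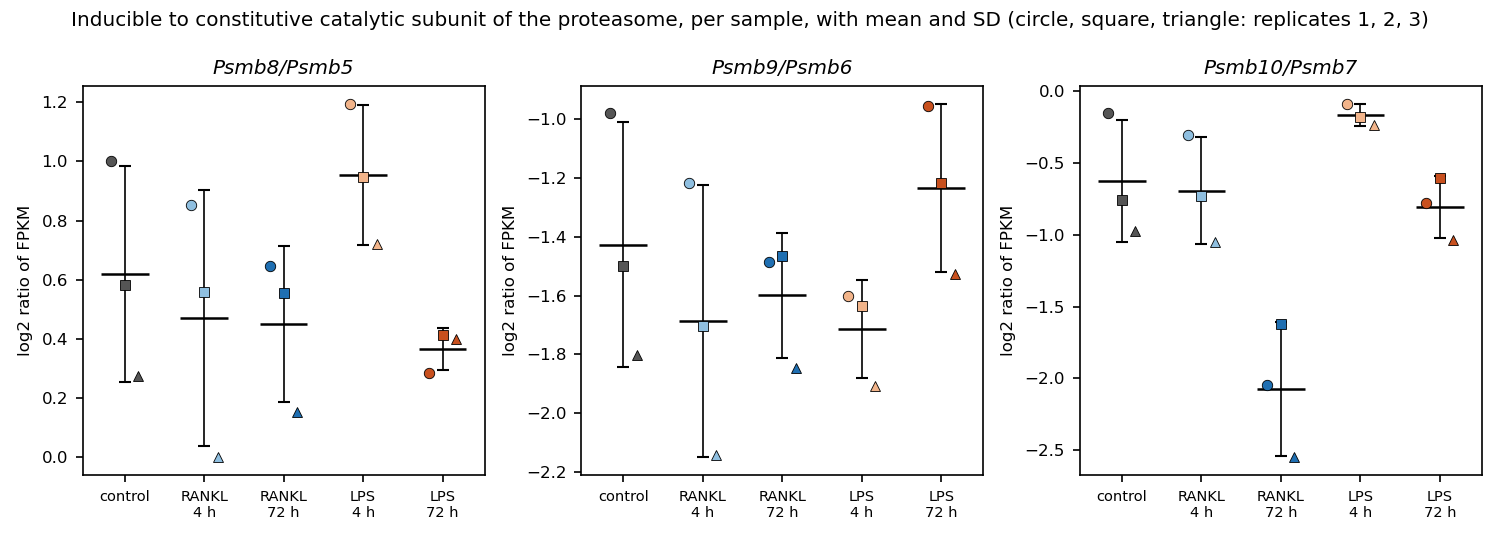
Log2 ratio of FPKM of each inducible proteasome subunit to the constitutive subunit it replaces (vertical axis), per sample in the 5 groups, with mean and SD of 3 samples. The *Psmb10* to *Psmb7* ratio in RANKL 72 h averages -2.07 against -0.63 in control cells, while the other ratios overlap control.

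The mouse MHC carries many heavy chains besides *H2-K1* and *H2-D1*, some nonclassical, and related molecules that present lipids or metabolites lie elsewhere. Of 21 such genes listed, 15 were tested. At RANKL 72 h, 10 fell and 1 rose, with a median log2 fold change of -1.22, where 9.04% of all genes fell and 20.2% rose. *H2-T23*, which encodes Qa-1, a ligand of an inhibitory receptor on natural killer cells, read 923, 579 and 499 FPKM in controls and 203, 205 and 148 FPKM in RANKL 72 h (log2 fold change -1.81, limma adjusted p = 0.000424). *H2-T24* (-1.84), *H2-T22* (-1.71) and *Cd1d1* (-1.43), which encodes a lipid-presenting molecule, also fell past adjustment. The gene that rose was *Hfe* (0.68, limma adjusted p = 0.0587), a regulator of iron uptake, named after its value was seen, and with samples centred on their median gene it did not pass.

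At LPS 72 h, 7 of the 15 rose and 2 fell, with a median of 0.79, where 14.9% of all genes rose and 16.1% fell. The 2 that fell were *H2-T24* (-1.28, limma adjusted p = 0.00113) and *H2-Q10* (-1.49, limma adjusted p = 0.0991). *H2-Q10* was at 0.478, 0.264 and 0.102 FPKM in LPS 72 h. *H2-T24* had fallen at RANKL 72 h too, and its difference between RANKL 72 h and LPS 72 h (-0.55) did not pass. *H2-M2* rose from 18.2, 4.34 and 1.39 FPKM to 58.7, 43.2 and 50.5 FPKM (log2 fold change 3.35, limma adjusted p = 0.00375). *Cd1d1* rose from 7.25, 5.95 and 5.76 FPKM to 26.5, 21.1 and 26.1 FPKM (1.94, limma adjusted p = 1.66e-05). *H2-Q6* (1.52) and *H2-Q7* (1.35) passed on unadjusted p alone. In both, LPS 72 h replicate 3 was the lowest of its group, at 184 FPKM for *H2-Q6* against 795 and 571 FPKM. Without control replicate 2, control replicate 3 or LPS 72 h replicate 1, 4 rose in each case, and without LPS 72 h replicate 3, 7 rose and 1 fell. RANKL 72 h was below LPS 72 h in 11 of the 15 and above it in none (1 was above with the block and 2 without LPS 72 h replicate 3), most in *H2-M2* (-4.66) and *Cd1d1* (-3.37). Among all tested genes 13.8% were lower in that comparison and 25.1% higher.

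At LPS 4 h, 2 of the 15 rose, *H2-M2* (3.49) and *H2-Q4* (0.87), and 3 fell, *Mr1* (-1.40), *Hfe* (-1.01) and *H2-T24* (-0.73). Among all tested genes 8.75% rose and 41% fell there. With the replicate number as a block 4 rose and 3 fell. With samples centred on their median gene 6 rose and 1 fell, where 17.4% of all genes rose and 14.3% fell. At RANKL 4 h, *H2-T24* fell (-0.85, limma adjusted p = 0.341) and none rose, where 1.35% of all genes fell and 1.21% rose. Without RANKL 4 h replicate 3 none passed, while without control replicate 2 there were 2. The heavy chains are alike in sequence. The longest coding transcripts of *H2-K1* and *H2-D1* agreed at 90.8% of aligned bases, and 1.55% of 75-base windows of *H2-K1* and 6.90% of those of *H2-D1* occurred unchanged in another gene. How reads shared by such genes were assigned is not given in the sources used here, so the split between heavy chains is uncertain. In the GENCODE annotation *B2m* overlaps *Patl2*, *Tap1* overlaps *Psmb9*, *Tapbp* overlaps *Zbtb22*, and *Tap2*, *Tapbp*, *Psmb8*, *Psmb10* and *Nlrc5* overlap noncoding genes. Without knowledge of strand in the counting, reads from such partners cannot be told apart.

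**Figure D4:**
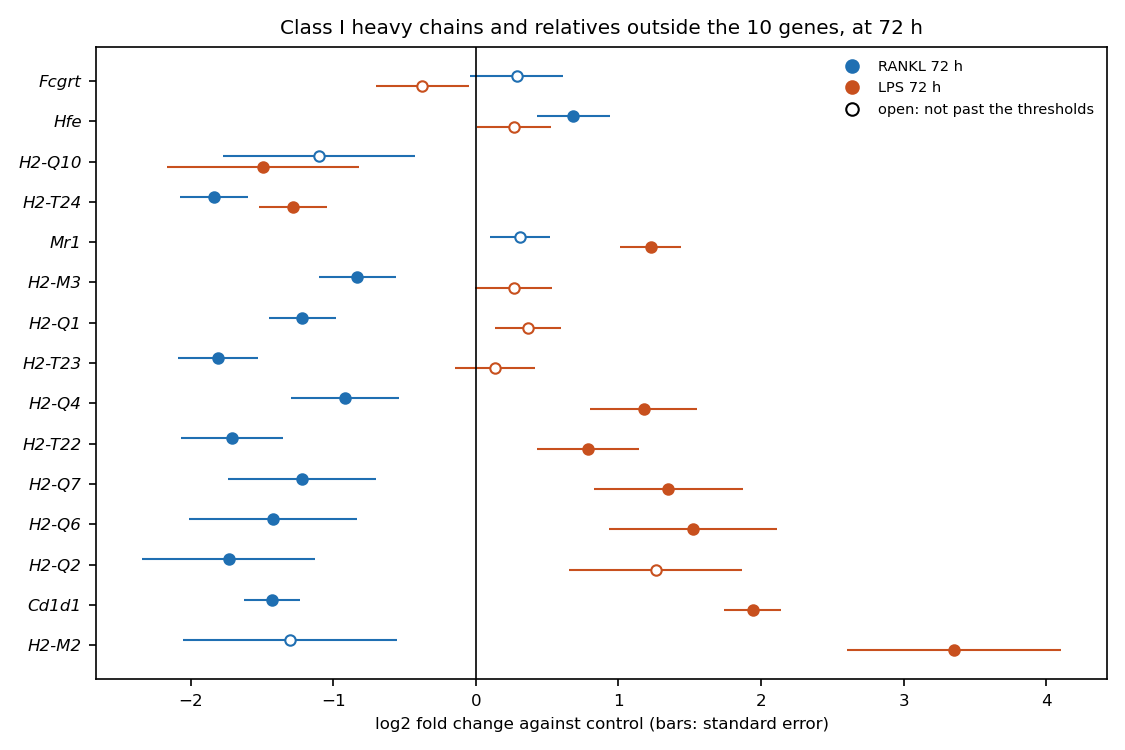
Log2 fold change against control (horizontal axis, bars are standard errors) of 15 class I heavy chains and relatives at RANKL 72 h and LPS 72 h. Filled points passed the thresholds, 10 lower and 1 higher in RANKL 72 h and 7 higher and 2 lower in LPS 72 h.

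Of 19 tested genes for peptide loading, folding and trimming, 4 fell at RANKL 72 h and none rose, where 9.04% of all genes fell and 20.2% rose. After adjustment *Psme1* and *Lap3* remained. *Psme1*, a subunit of the proteasome activator PA28, fell from 373, 265 and 203 FPKM to 119, 155 and 121 FPKM (log2 fold change -1.05, limma adjusted p = 0.00887). *Psme2*, its partner, fell by 0.63, *Tapbpl*, a tapasin relative, by 1.04 and the aminopeptidase gene *Lap3* by 0.66. With the replicate number as a block 1 gene of this list rose. *Psme1* (-1.05) and *Lap3* (-0.88) also fell at LPS 72 h, and none rose there, where 16.1% of all genes fell and 14.9% rose. At LPS 4 h *Tapbpl* (0.85) and *Psme2* (0.78) rose and *Thop1*, which encodes a peptide-degrading enzyme, fell (-0.93). Among all tested genes 8.75% rose and 41% fell there. None passed at RANKL 4 h, where the list's median was -0.11. At 72 h, *Tapbpl* (-1.46), *Erap1* (-0.73) and *Pomp* (-0.63) were lower in RANKL than in LPS and *Blmh* (0.79) was higher. Of all tested genes 13.8% were lower and 25.1% higher in that comparison.

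Of 20 regulators of class I genes, 5 rose and 4 fell at LPS 4 h, where 8.75% of all genes rose and 41% fell. *Irf1*, an interferon-induced activator, rose from 57.4, 35.1 and 25.1 FPKM to 359, 312 and 232 FPKM (log2 fold change 3.00, limma adjusted p = 1.94e-05). *Nfkb1* rose by 2.78, *Jak2* by 2.77 and *Rela* by 1.37 on the log2 scale. The subunits of the RFX complex did not move alike at LPS 4 h. *Rfx5* rose (0.86), while *Rfxank* (-1.09, limma adjusted p = 0.00119) and *Rfxap* (-1.03, limma adjusted p = 0.00012) fell. The other genes that fell there were *Ezh2* (-0.97), a histone methyltransferase gene, and *Kpnb1* (-0.66), which encodes a nuclear import factor. *Rfx5* also rose at RANKL 72 h (0.77), where *Nlrc5* had fallen. At RANKL 72 h *Stat2* (-1.54) and *Irf8* (-0.97) fell, and *Nfkb1* (0.62) and *Ezh2* (0.60) rose, where 9.04% of all genes fell and 20.2% rose. *Stat2* was the one regulator past the thresholds at RANKL 4 h (-0.88, limma adjusted p = 0.598), and 2 fell with the replicate number as a block.

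Among 6 interferon and interferon receptor genes tested, *Ifnb1* read 3.87, 1.89 and 0.649 FPKM in controls and 50.5, 21.2 and 12.5 FPKM in LPS 4 h. It read 0.133, 0.0633 and 0.0643 FPKM in RANKL 72 h, and in LPS 72 h it was at 0.0610 FPKM in replicate 1 and at 0 in the others. It rose at LPS 4 h (3.72, limma adjusted p = 0.000638) and fell at RANKL 72 h (-3.30, limma adjusted p = 0.00435) and at LPS 72 h (-3.95, limma adjusted p = 0.00103). The RANKL 72 h values lie near or below the pseudocount of 0.1 FPKM, and 2 of the LPS 72 h libraries are listed at 0. The size of both falls therefore depends on the pseudocount. *Ifngr1*, the receptor chain for interferon gamma, rose at RANKL 72 h (0.88) and fell at LPS 4 h (-1.02), and *Ifnar1* rose at RANKL 72 h (0.66). Of the 6 genes, 2 rose and 1 fell at LPS 4 h, where 8.75% of all genes rose and 41% fell. The other gene that rose there was *Ifng*, from 0.154, 0.0388 and 0.0826 FPKM in controls to 5.64, 1.42 and 1.83 FPKM.

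Class II genes, which present peptides to CD4+ T cells, were tested beside them. Of 9 tested, *H2-Aa*, *H2-Eb1* (-2.70), *Cd74* (-2.11) and *H2-Ob* (-2.11) fell at LPS 72 h, where 16.1% of all genes fell and 14.9% rose. *H2-K1* and *H2-D1* had risen there, though neither passed with samples centred on their median gene. In the same comparison 6 of 6 tested B cell and 5 of 8 dendritic cell markers were lower, and their part in the result was not tested. Class II levels were widely spread in controls, with *H2-Aa* at 113, 57.8 and 16.3 FPKM, but all 3 of its values lay above the 6.90, 6.13 and 4.68 FPKM of LPS 72 h. *Ciita*, the class II activator and a relative of *Nlrc5*, fell at LPS 72 h from 0.387 ± 0.146 to 0.0129 ± 0.0112 FPKM (-2.07, limma adjusted p = 0.00579). Its LPS 72 h values lie below the pseudocount of 0.1 FPKM, so the size of this fall depends on the pseudocount. So does that of *H2-Ob*, at 0.0407, 0.0140 and 0.290 FPKM in LPS 72 h. At RANKL 72 h 1 class II gene fell, *H2-Oa* (-1.54, limma adjusted p = 0.0669), where 9.04% of all genes fell. With the replicate number as a block 2 fell.

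Across the 15 samples the 10 genes moved together to unequal degrees. Pearson's r of a gene with the mean of the other 9 was highest for *Tap1* (0.92), *Psmb10* (0.91) and *Tapbp* (0.90) and lowest for *H2-D1* (0.72) and *Nlrc5* (0.57). Of single pairs, *H2-K1* and *B2m* were most alike (r = 0.96) and *H2-D1* and *Nlrc5* least (r = 0.24). These describe 15 samples that share 5 groups and their replicate numbers. The genes whose pattern was most like the mean of the 10, among 9476 compared, were *Scimp* (r = 0.98), *Phc2* (0.96), *Phf11b* (0.95), *Parp10* (0.93), *Phf11a*, *Misp*, *LOC102639543*, *H2-M3*, *Cd86* and *Psma2* (all 0.92). *Scimp*, which encodes an adaptor in antigen-presenting cells, averaged 14.3 FPKM in control cells, 9.36 in RANKL 4 h, 0.967 in RANKL 72 h, 21.6 in LPS 4 h and 8.49 in LPS 72 h.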

How the data were processed

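The deposited file held 1 FPKM value for each gene in each sample, made by the authors with StringTie and Ballgown according to their methods. Their processing notes list GRCm38.p4 and mm10. The aligner and whether counting used strand are not given in the sources used here. Libraries were made from total RNA with a SMARTER kit. The table held 20089 complete entries. The entry after them was incomplete, and genes after it in alphabetical order were not analysed here.

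From the deposited FPKM values log2(FPKM + 0.1) was taken and fitted with limma 3.58.1 under R 4.3.3 (linear model, then moderated variances with a mean trend). The 11743 genes averaging 0.1 FPKM or more were tested, with 1 term per group and 8 contrasts. Fold changes are on the log2(FPKM + 0.1) scale. The thresholds were those of the study, an unadjusted p under 0.05 with a fold over 1.5 or under 0.66. Adjusted p-values are Benjamini-Hochberg over all tested genes. The methods of the study name edgeR, which needs counts and was not used. The fit was tested on simulated data.

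Because each gene's FPKM rose in equal steps, whole fragments were recovered for 14485 of 14485 genes above 0 in at least 3 samples (within 0.01 of a whole fragment), and limma voom on them was an alternative added after seeing the data. Recovered fragments numbered 18306184 to 20330207 per sample (median 19351141), which sets counting error only. Ratios were compared by exact permutation tests.

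The genes and lists were chosen with earlier results of these data known. All 10 class I genes, *Psmb5*, *Psmb6*, *Psmb7*, *Irf1*, *Rfx5* and *Ciita* are named, with up to 4 changed genes of the largest fold change per list and comparison (mean of at least 1 FPKM), and the 10 genes most like the class I mean. Other genes are named to complete a count of 5 or fewer, and 1 further gene of this rule is not reported here.

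Groups and replicate numbers were taken from the labels. Nothing there says that samples are separate cultures or animals, so p-values measure the spread between these samples. Samples of the same number deviated together (r over 9486 genes) in control with RANKL 4 h (0.71 to 0.84), control with LPS 4 h (0.44 to 0.62) and RANKL 4 h with LPS 4 h (0.55 to 0.69). They did so weakly in control with RANKL 72 h (0.14 to 0.32) and RANKL 4 h with RANKL 72 h (0.16 to 0.25). In both weak cases 2 of the 3 samples matched their own number best, as for control with LPS 72 h. Samples were taken as pairs in all of these but not with LPS 72 h (lowest -0.23 with RANKL 72 h). What the number marks is not given in the labels. Alternatives covered pseudocount, filter, scaling, block, trend, groups in the fit and samples left out. Upstream sequences are from RefSeq on GRCm38.p6 and transcripts from GENCODE, and *Tap2* and *Nlrc5* had no upstream sequence used here. Python 3.11.15 with numpy 2.4.6, pandas 2.3.3, scipy 1.17.1, biopython 1.88 and matplotlib 3.10.9 did the rest.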

Additional observations from a re-analysis of the deposited data

Results flagged for a closer look

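The difference between the 2 times of one stimulus was tested directly, and these genes passed after adjustment. RANKL 72 h was below RANKL 4 h by log2 fold changes of -0.98 for *H2-K1* (limma adjusted p = 0.0188), -0.84 for *H2-D1* (0.0142), -0.83 for *B2m* (0.0153) and -1.23 for *Psmb10* (0.00974), with no overlap between the 3 and 3 samples, as for 15.6% of all genes. Of the 11743 tested genes, 802 were lower and 1930 higher there after adjustment. LPS 72 h was below LPS 4 h by log2 fold changes of -0.91 for *Tapbp* (limma adjusted p = 0.0120), -0.88 for *Psmb10* (0.0219) and -1.14 for *Nlrc5* (0.00108), and above it by 0.60 for *H2-D1* (0.0308), again without overlap. After adjustment 1631 of all tested genes were lower in that comparison and 5186 higher. All later values lay below all earlier ones in 16.4% of all genes, and above them in 51.6% as in *H2-D1*. The median of all genes was higher by 0.52, and with samples centred on their median gene *H2-D1* was at -0.05. It also did not pass without the filter on low values, with only these 2 groups in the fit, or without LPS 4 h replicate 2 or 3 or LPS 72 h replicate 1.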

How the results depend on the processing

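For single genes, 1080 results of alternatives were computed, of which 921 kept direction and side of the thresholds, 114 lost the call, 15 gained it and 30 turned sign. All 10 genes were run at RANKL 72 h, LPS 4 h and LPS 72 h against control. In the other comparisons only genes already past the thresholds were run, so no call could be gained there. Adding a block for the replicate number left the pairing in the fit, and the number of changed class I genes was then as without it in all 8 comparisons (1 at RANKL 4 h, 8 at RANKL 72 h, 3 at LPS 4 h and 2 at LPS 72 h), and voom on recovered fragments gave these numbers too. After adjustment the block gave 8 at RANKL 72 h, 3 at LPS 4 h and 6 for RANKL 72 h against RANKL 4 h. It gave 2 at LPS 72 h, 8 for RANKL 72 h against LPS 72 h and 5 for LPS 72 h against LPS 4 h. The replicate number did not pair LPS 72 h with the other groups and paired RANKL 72 h only weakly. No share of all genes past adjustment is given for the block, so none of these counts is read as firmer than those without it. The block was fitted over all 15 samples, LPS 72 h included. With adjusted p the number was 0 at RANKL 4 h, 1 at LPS 72 h and 5 for RANKL 72 h against LPS 72 h. Centring samples on their median gene gave 8 at LPS 4 h, 0 at LPS 72 h and 7 for RANKL 4 h against LPS 4 h. With 1 sample left out the number ran from 0 to 1 at RANKL 4 h, 3 to 10 at RANKL 72 h, 1 to 4 at LPS 4 h, 0 to 2 at LPS 72 h, 1 to 5 for RANKL 4 h against LPS 4 h, 4 to 8 for RANKL 72 h against LPS 72 h, 4 to 8 for RANKL 72 h against RANKL 4 h and 3 to 5 for LPS 72 h against LPS 4 h. An alternative chosen after seeing the data left out 1 replicate number from every group. Without number 1 the count was 5 at RANKL 72 h. Without number 2 it was 0 at RANKL 4 h, 5 at RANKL 72 h, 1 at LPS 4 h, 0 at LPS 72 h, 1 and 4 between the stimuli at 4 h and 72 h, and 3 for each late against early comparison. Without number 3 it was 1 at LPS 4 h, 0 at LPS 72 h, 2 for RANKL 4 h against LPS 4 h and 3 for LPS 72 h against LPS 4 h. These fits have fewer samples. Signs turned in small log2 fold changes, and their cause was not tested. At LPS 4 h they ran, with 1 sample left out, from -0.10 to 0.23 for *H2-D1*, -0.14 to 0.14 for *B2m* (-0.0033 without number 1), -0.27 to 0.21 for *Psmb8* (0.040 without number 1, 0.011 without number 2) and -0.11 to 0.37 for *Psmb9*. *B2m* was -0.011 after rescaling FPKM to equal sums and -0.0018 with voom, and *Psmb8* was 0.53 after centring. At LPS 72 h they ran from -0.170 to 0.27 for *Tap1* (-0.078 after centring, -0.174 without number 2), -0.51 to 0.091 for *Tapbp* (0.14 without number 1), -0.33 to 0.15 for *Psmb9* (0.025 without number 1) and -0.24 to 0.081 for *Nlrc5* (0.139 without number 1). *H2-D1* at LPS 72 h against LPS 4 h was -0.052 after centring. The log2 ratio differences ran from -0.341 to 0.0861 for *Psmb8* to *Psmb5* at RANKL 4 h and -0.341 to 0.0233 at RANKL 72 h, -0.360 to 0.0518 for *Psmb9* to *Psmb6* at RANKL 72 h, and -0.261 to 0.171 and -0.352 to 0.0585 for *Psmb10* to *Psmb7* at RANKL 4 h and LPS 72 h. Depth was not limiting, since each class I gene had at least 942 fragments in each sample.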
